A study of Gossypium hirsutum with 30 samples.

Results

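Ovules of the fuzzless-lintless (fl) mutant of upland cotton, Gossypium hirsutum, were compared with fibre-bearing ovules of its near-isogenic wild type (WT), cv. MCU5, at 5 days post anthesis (dpa). The comparison rests on 6 of the 30 arrays of the series, which are all the arrays labelled 5 dpa, with 3 biological replicates of WT and 3 of the fl mutant. The same genotypes were sampled at 0, 10, 15 and 20 dpa, and every stage has WT arrays of its own. Plants of both genotypes grew in the field without a treatment, the mutation is spontaneous, and the mutant is represented by 1 line, so that differences of the line other than the fibre trait cannot be told apart from it. RNA was taken from whole ovules and hybridised to the Affymetrix cotton GeneChip, on which a probe set reports the transcript of a gene or of closely related genes. In whole ovules, fewer cells of a type and less RNA per cell cannot be told apart.

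A cotton fibre is a single cell of the ovule epidermis. Fibre initials bulge out around the day of flowering and then elongate by diffuse growth, which needs a loosened primary wall, turgor from sucrose, potassium and malate, new membrane and cuticle lipids, and hormones such as ethylene and brassinosteroids. At 5 dpa WT fibres are in early elongation, whereas the fl mutant forms fewer initials, which do not elongate. The ovule below the epidermis is at this time a growing sink that imports sugars and amino acids for endosperm, embryo and seed coat.

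The deposited log2 values are relative, because each probe set had been centred within a stage, so that its 6 arrays of 5 dpa have a median of 0. They hold differences between the genotypes within 5 dpa, but no expression levels and no changes with age, and whether the labelled tissue expresses its defining genes cannot be read from them. In a transcript whose genotypes do not overlap, the value nearest to 0 in WT and that in the fl mutant mirror each other by construction. All 24029 probe sets other than the array's controls were tested, and those calls count here that changed at least 3-fold with a p, adjusted by the method of Benjamini and Hochberg, no larger than 0.01.

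Every difference below is fl mutant minus WT by the labels deposited with the arrays, and the fold tables published with the study give the opposite direction at 5 dpa. Of 355 transcripts with a fold for 5 dpa in those tables, the sign computed from the labelled arrays was opposite for 355, and the size was within 0.05 on the log2 scale for 354. At 5 dpa, "WT" and "fl mutant" therefore mean the arrays carrying these labels, and with the labels exchanged every direction given here for 5 dpa would turn.

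The arrays of the other stages give a further measurement that touches this direction. In separate fits of 0, 10 and 15 dpa, 29 transcripts were called the same way at all 3 of these stages, 5 of them higher and 24 lower in the fl mutant. By the labels, 25 of the 29 (86.2%) had the opposite sign at 5 dpa. Of the 5 higher at the other stages 4 were called lower at 5 dpa. Among them a transcript with no gene name in the sources used here stood at log2 folds of 5.78 at 0 dpa, −4.24 at 5 dpa, 4.36 at 10 dpa and 3.19 at 15 dpa. The 24 lower transcripts had 5 dpa folds between −0.68 and 1.09 with a median of 0.44, and none of them was called at 5 dpa. They included RD22, a dehydration-responsive protein, CUT1, a condensing enzyme of wax synthesis, WBC11, an exporter of cuticular lipids, and UGP, which makes UDP-glucose. RD22 and CUT1 stand there with more than a single probe set, so the 29 are not all separate genes. Of the 11 probe sets matched to RD22 in all, 1 outside the 29 was called higher at 5 dpa, at 1.59. The lowest of the 11 was at −0.85. At 20 dpa 24 of the 29 also had the opposite sign by the labels, and 17 of them were called that way, but the labels of 20 dpa stand in the same conflict with the fold tables as those of 5 dpa. Of 527 table folds at 20 dpa 527 had the opposite sign, whereas the sign was the same for 370 of 370 at 0 dpa, 1828 of 1828 at 10 dpa and 524 of 525 at 15 dpa. The calls of 5 dpa as a whole ran differently by stage. Of the 441 transcripts called higher at 5 dpa, 2 were higher and 85 lower at 0 dpa. At 10 dpa 213 of them were higher and 35 lower, and at 15 dpa 28 were higher and 55 lower. Of the 43 called lower at 5 dpa, 10 were higher and 3 lower at 0 dpa, and 10 and 5 at 10 dpa. Whether the labels of 5 and 20 dpa are exchanged was not tested. The plot of these 29 transcripts covers 0, 5, 10 and 15 dpa and shows the turn of sign at 5 dpa.

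**Figure D1:**
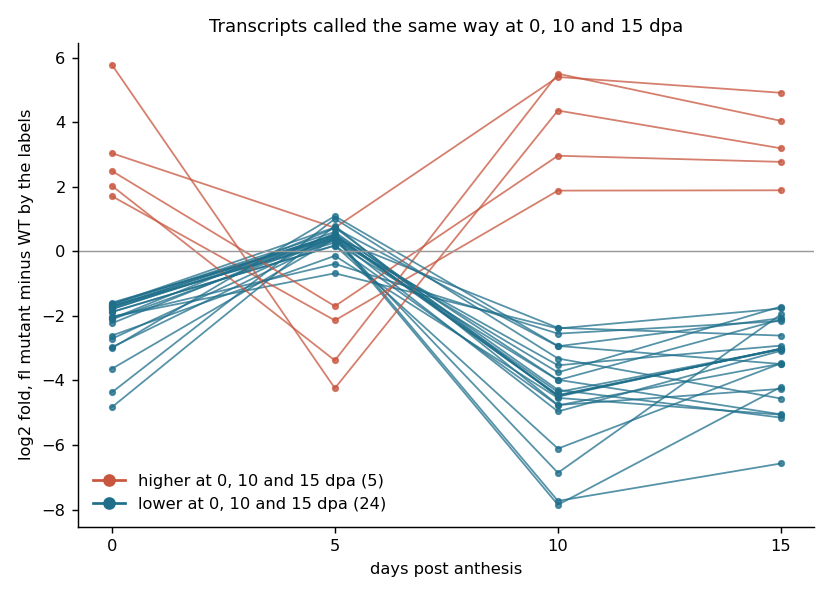
Log2 fold of fl mutant minus WT, by the labels, against days post anthesis for the 29 transcripts called the same way at 0, 10 and 15 dpa, with 1 line per transcript (orange, 5 higher; blue, 24 lower). At 5 dpa 25 of the 29 lie on the other side of 0, and the fold tables of the study have the opposite sign to the labels there. The folds of 20 dpa are not drawn.

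By the labels, the fl mutant ovules at 5 dpa differed from WT mostly by transcripts that were higher. They had more mRNA matched to genes of nutrient remobilisation, ethylene synthesis, abscisic acid response, transport, proteolysis and defence. No probe set listed for ketoacyl-CoA synthases, which elongate fatty acids, or for the cytoskeleton was called. Of the wall groups, xyloglucan enzymes had 16.0% of probe sets higher, expansins 10.5% and pectin enzymes 2.56%, beside 14.0% of all transcripts with a gene name. Of the 24029 transcripts, 441 (1.84%) were higher and 43 (0.179%) lower, so that 91.1% of the 484 calls were higher. The calls were large: the median log2 fold was 2.34 among the higher and −1.89 among the lower, 114 higher transcripts and 7 lower passed 8-fold, and 36 and 3 passed 16-fold. Smaller differences ran in both directions, since 2499 transcripts were higher and 2629 lower at an adjusted p of at most 0.01 with no limit on the fold. The median log2 fold over all probe sets was −0.07. WT and fl mutant arrays did not overlap for any of the 484 calls, beside 49.2% of all probe sets without overlap.

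Gene names come from the study's tables, which name 2367 of the probe sets, 2098 of them through a match in Arabidopsis. Among the 2367, 332 (14.0%) were higher and 26 (1.1%) lower, and these shares are the ones to set beside the counts of gene groups below. The tables name transcripts that passed the study's own test at some stage on these arrays. The groups themselves were chosen with earlier results of these data known. No count or median of a group is therefore independent evidence of its direction, or of a share above that of all named transcripts. A further 109 higher and 17 lower calls have no name in these tables. Of 111 genes with 2 or more probe sets and at least 1 call, none was called in both directions, and in 19 every probe set was called. A gene is given below by its called probe sets, and others matched to it may not be called, as for AT5G19880 (1 of 8 called), DOGT1 (1 of 5) and LAC14 (1 of 4).

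The plot of single arrays below shows the 10 matched genes with the largest fold in each direction. Expansin-like EXLB1, a member of the expansin family of wall proteins, had log2 values of −4.26, −3.51 and −3.44 in the WT arrays and 3.44, 3.44 and 3.47 in the fl mutant arrays. All fl arrays lay far above all WT arrays, with a log2 fold of 7.18 (SE 0.20, adjusted p = 3.65e-07), and the second EXLB1 probe set stood at 5.19. The transcript matched to AT3G62730, a protein of unknown function, read −3.54, −3.57 and −3.59 in WT and 3.54, 3.54 and 3.66 in the fl mutant, a fold of 7.14 (SE 0.0611, adjusted p = 6.28e-09). Its 3 values in each genotype lay closer together than those of EXLB1. TBL38, of a family that acetylates wall polysaccharides, stood at 5.53 (SE 0.107) and PP2-A10, a phloem lectin-like protein, at 4.99 (SE 0.125). The largest fold of all, 8.13 (SE 0.0951, adjusted p = 3.09e-08), belonged to a transcribed locus without a name, whose probes may also bind related transcripts. Its WT arrays stood at −3.99, −4.34 and −4.05 and its fl mutant arrays between 3.99 and 4.01.

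**Figure D2:**
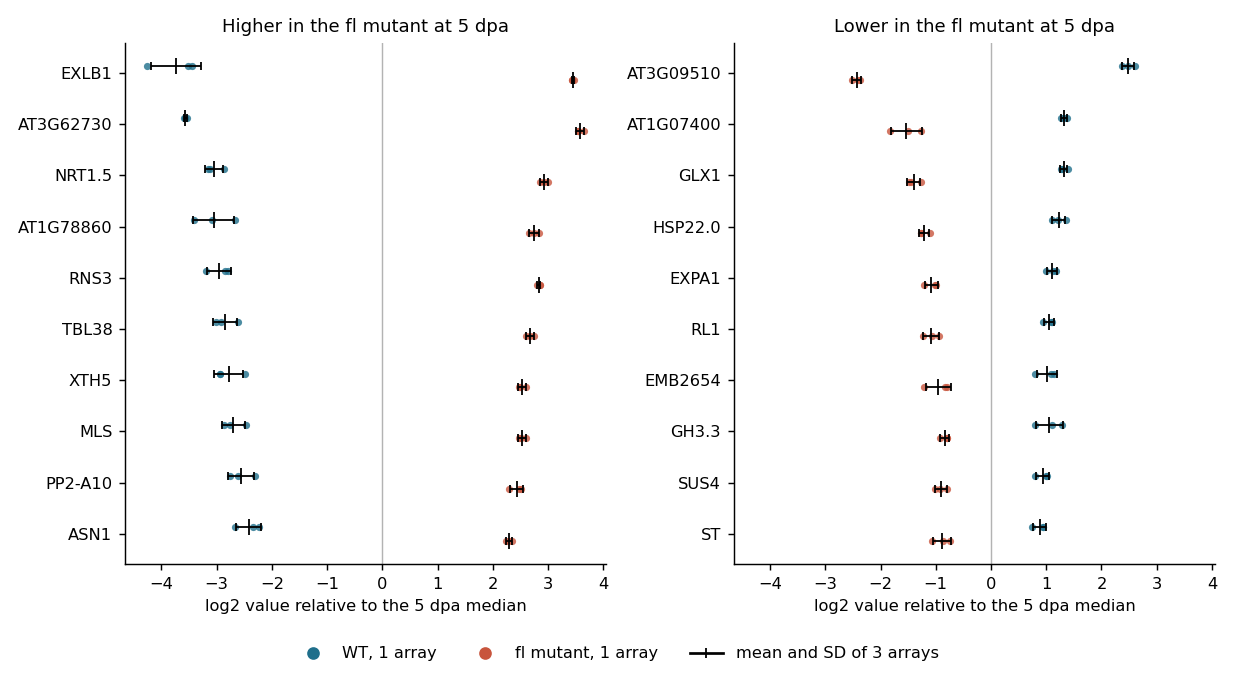
Log2 value relative to the 5 dpa median in each array (dots; blue, WT; orange, fl mutant), with the mean and SD of 3 arrays per genotype in black, for the 10 Arabidopsis-matched genes with the largest fold in each direction. No WT dot overlaps the fl dots of its gene, and EXLB1 and AT3G62730 show the widest separation, at log2 folds of 7.18 and 7.14.

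Genes of starvation and senescence were among the largest groups of higher calls. In tissue that lacks sugar, such genes recycle amino acids, lipids and nucleic acids. Of 33 probe sets 22 were higher and 0 lower, from 16 of 18 genes, with a median log2 fold of 2.03. ASN1, the asparagine synthetase of dark and sugar-starved tissue, read −2.67, −2.24 and −2.34 in WT and 2.30, 2.24 and 2.34 in the fl mutant. The genotypes did not overlap, the fold was 4.71 (SE 0.111, adjusted p = 1.91e-07), and 5 of the 6 ASN1 probe sets were higher, at 3.24 to 4.71. MLS, the malate synthase of the glyoxylate cycle that turns fat into sugar precursors, read −2.76, −2.87 and −2.47 in WT and 2.47, 2.61 and 2.51 in the fl mutant, a fold of 5.23 (SE 0.108, adjusted p = 1.14e-07).

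The ribonuclease RNS3 belongs to the same group and had −2.80, −3.20 and −2.85 in WT and 2.85, 2.80 and 2.85 in the fl mutant. Its fold was 5.78 (SE 0.107, adjusted p = 7.78e-08), again without overlap. SAG21, a senescence-associated protein of the mitochondrion, stood at 4.66, the match of AT4G27450, an aluminium-induced protein, at 3.42, and ACX4, an acyl-CoA oxidase of peroxisomes, at 2.96. BXL1, a β-xylosidase of the wall that is repressed by sugar, was at 2.74, and the enzyme that degrades lysine (AT4G33150) at 2.61.

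Proteolysis and nucleic acid turnover gave 15 higher and 0 lower probe sets of 28, with a median of 1.65. Beside RNS3, the aspartyl proteases matched to AT1G03220 and AT5G10770 were higher, the former at 3.61 (SE 0.125, adjusted p = 1.00e-06) and the latter at 3.60 with a like error (SE 0.11). The former read −1.98, −1.61 and −1.77 in WT and 1.90, 1.61 and 1.98 in the fl mutant. Both are enzymes that cut secreted or vacuolar proteins. The metacaspase MC3 stood at 2.93, the cytidine deaminase CDA1 at 2.24, the xylem serine protease XSP1 at 2.06 and the vacuolar processing enzyme beta-VPE at 1.96.

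Carriers that load or import nutrients were also among the higher calls. Of 39 probe sets for transporters and channels 21 were higher and 0 lower, with a median of 1.73. The largest was NRT1.5, a nitrate transporter that loads the xylem in Arabidopsis roots, with −2.86, −3.12 and −3.16 in WT and 2.86, 2.92 and 3.00 in the fl mutant. No arrays of the genotypes overlapped, and the fold was 5.97 (SE 0.0924, adjusted p = 4.10e-08). An amino acid carrier matched to AT1G47670 was at 3.63 (SE 0.0718) and the peptide carrier PTR3 at 3.38. Further carriers covered several solutes: TDT, the malate carrier of the vacuole, stood at 3.40, the amino acid permease AAP3 at 2.90, the iron-chelate carrier YSL1 at 2.39, the sugar carrier STP2 at 2.22, and the sugar exporters SWEET10 and SAG29 at 2.11 and 2.06. PROT2, a proline carrier outside this list, was at 2.71 (SE 0.117).

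Water channels formed part of that group. The plasma membrane aquaporin PIP2;2 had −2.26, −1.65 and −1.79 in WT and 1.69, 1.72 and 1.65 in the fl mutant, a fold of 3.58 (SE 0.147, adjusted p = 2.39e-06). Of 13 probe sets matched to gamma-TIP, the water channel of the vacuole membrane, 5 were higher, up to 2.40, and none lower. The match of PIP2;2 is the study's own. A probe set with the same cluster number in its ID is matched there to gamma-TIP, so the split between these aquaporins is uncertain.

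Ethylene is made from ACC by ACC oxidase, and the gas promotes fibre elongation in cultured cotton ovules. In the fl mutant 4 of 11 probe sets of ACC oxidases and synthases were higher and 0 lower. The ACC oxidase matched to AT1G12010 read −2.37, −2.42 and −2.27 in WT and 2.30, 2.27 and 2.27 in the fl mutant, a fold of 4.64 (SE 0.0621, adjusted p = 3.66e-08). Its arrays were close together within each genotype. Of 6 probe sets matched to ACO4, 3 were higher, at 4.03 (SE 0.0691), 3.28 and 1.97. The other 7 probe sets lay between −1.07 for ACO1 and 0.82 for ACS6, an ACC synthase, and the list's median was 0.45.

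Abscisic acid (ABA) closes stomata, holds back growth and turns on genes of dehydration and seed maturation. Of 33 probe sets of ABA and osmotic response 17 were higher and 0 lower, with a median of 1.59. RD26, a NAC transcription factor of the dehydration response, had −2.25, −2.02 and −2.08 in WT and 2.41, 2.21 and 2.02 in the fl mutant, with no overlap and a fold of 4.32 (SE 0.111, adjusted p = 2.55e-07). A second probe set that annotation pairs with the same cotton gene (LOC107916546) stood at 5.28 (SE 0.0803, adjusted p = 4.10e-08). Osmotin-like OSM34 was at 3.29 (SE 0.101), P5CS2, which makes proline, at 3.23 (SE 0.0904), and ABA2, an enzyme of ABA synthesis, at 2.52 in 1 of 4 probe sets, the others being at 0.18, −0.17 and −0.31.

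Both sides of ABA perception were in the list. The phosphatases ABI2 and HAB1, which hold the pathway off, were at 2.11 and 2.10, and the receptor RCAR1 was at 1.62, or 1.52 and not called without WT replicate 3. The IDs of the ABI2 and HAB1 probe sets share a cluster number, so they may not read separate genes. RD20, a calcium-binding caleosin of dehydrated tissue, read −1.77, −1.22 and −1.01 in WT and 1.05, 1.06 and 1.01 in the fl mutant, a fold of 2.37 (SE 0.176, adjusted p = 4.57e-05). Its WT arrays were spread more widely than those of the fl mutant.

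Gibberellins and brassinosteroids promote fibre growth, and 9 of 24 probe sets for their turnover and receptors were higher, 0 lower, with a median of 1.00. The enzymes among them inactivate hormone: GA2OX8, which degrades gibberellin precursors, stood at 2.97 (SE 0.106, adjusted p = 1.19e-06), and DOGT1, which glucosylates brassinosteroids, at 3.02 (SE 0.105, adjusted p = 1.03e-06). GA2OX8 read −1.69, −1.38 and −1.39 in WT and 1.61, 1.45 and 1.38 in the fl mutant, without overlap. Related UGT73C1 was at 2.69 (SE 0.20), and the brassinosteroid hydroxylases BAS1 (2 of 8 probe sets) and CYP72C1 were at 2.36 and 1.98. The gibberellin receptor GID1B was at 2.19. GH3.3, which conjugates auxin to amino acids, was in contrast lower. It read 0.79, 1.28 and 1.10 in WT and −0.79, −0.93 and −0.79 in the fl mutant, a fold of −1.89 (SE 0.122, adjusted p = 2.29e-05).

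Defence genes gave 22 higher and 0 lower of 31 probe sets, with the highest median of the 30 lists at 2.28. A mannose-binding lectin matched to AT1G78860 had −2.66, −3.40 and −3.09 in WT and 2.66, 2.83 and 2.74 in the fl mutant, a fold of 5.79 (SE 0.17, adjusted p = 4.76e-07), and its second probe set was at 4.74. HSPRO2, related to a nematode resistance protein of beet, was at 3.89 (SE 0.132, adjusted p = 9.26e-07), and a Kunitz protease inhibitor (AT1G17860) at 3.66 (SE 0.11). Of the pathogenesis-related proteins, the basic chitinase HCHIB was at 2.82 and PR4 at 1.71, and PGIP1, which inhibits fungal polygalacturonases, was at 3.01 (SE 0.0809). The kinases MKK9 and MPK3, which act in immune and ethylene signalling, were at 3.54 (SE 0.0943) and 3.38, and the lipoxygenase LOX1 was at 1.67. PR4 dropped below the fold threshold, to 1.55, without WT replicate 1.

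Enzymes that handle peroxide, phenolics and metals gave 13 higher and 1 lower of 35 probe sets, with a median of 0.52. Glutathione transferase GST30 read −2.20, −2.39 and −2.11 in WT and 2.11, 2.13 and 2.14 in the fl mutant, a fold of 4.36 (SE 0.0809, adjusted p = 7.78e-08). The peroxidase PA2 was at 3.82 (SE 0.116), and those matched to AT5G19880 and AT5G05340 were at 3.48 and 3.33. A metallothionein-like transcript was at 3.79 (SE 0.11) and a second at 2.45, the iron store FER2 at 3.13, and the laccases LAC14 and LAC12, which oxidise phenolics in the wall, at 2.38 and 2.31. GLX1, the glyoxalase that clears methylglyoxal, was the lower member. It read 1.27, 1.28 and 1.39 in WT and −1.45, −1.27 and −1.48 in the fl mutant, a fold of −2.72 (SE 0.0762, adjusted p = 3.66e-07).

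Shares of higher calls among regulators ran from 60.0% for PLATZ to 3.33% for MYB factors, beside 14.0% of all named transcripts. The PLATZ share rests on 1 of 2 genes, AT4G17900. NAC factors stood at 46.7% and AP2-EREBP factors at 14.3%. Of 15 NAC probe sets 7 were higher, of 54 in the WRKY group 11, of 49 AP2-EREBP 7, of 18 C2H2 zinc fingers 5, of 26 homeobox factors 5, of 5 PLATZ factors 3 and of 30 MYB factors 1. None of these lists had a lower call, beside 1.1% of named transcripts. The MYB list does not hold the RAD-like MYB protein RL1, which was lower at −2.14. NAC047 had −2.07, −2.04 and −2.00 in WT and 2.02, 2.00 and 2.07 in the fl mutant, a fold of 4.07 (SE 0.0559, adjusted p = 3.66e-08). NAC074 followed at 4.04 (SE 0.167) and 3.63 (SE 0.174) in its 2 probe sets, and ATAF1 and NAC083 at 2.97 and 2.78. NAC factors of this kind govern senescence and stress responses in Arabidopsis.

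In the WRKY group, whose list also holds kinases of the same pathway, WRKY75 stood at 3.58 (SE 0.15, adjusted p = 2.66e-06). It promotes leaf senescence in Arabidopsis and read −1.91, −2.24 and −1.60 in WT and 1.77, 1.60 and 1.60 in the fl mutant. WRKY6 was at 3.20, WRKY33 at 2.80, WRKY70 at 2.29 and WRKY40 at 1.60, and WRKY40 fell just below the fold threshold without WT replicate 2 (1.58) or fl replicate 2 (1.56). A protein matched to WRKY19, which joins a WRKY domain to a kinase, was at 3.85 (SE 0.157), and 1 more of its 16 probe sets was higher at 2.26. The ID of the probe set at 2.26 shares a cluster number with those of MPK3, so it may not read a separate gene. The other WRKY19 probe sets were not called and reached down to −0.83. Ethylene response factors ERF-1 and ERF2 were at 3.03 (SE 0.115) and 2.37 (SE 0.11), RAV1 at 3.25 (SE 0.0633) and ERF5 at 1.67.

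Among the remaining factors the zinc finger STZ was at 2.65 (SE 0.154) and the match of AT2G28200 at 2.47 (SE 0.11). The homeodomain proteins BLH1, HB40, KNAT3 and KNAT7 were at 3.44 (SE 0.0696), 2.36 (SE 0.0753), 2.11 (SE 0.0681) and 1.61, and the last was at 1.52, below the threshold, without fl replicate 1, where 3 homeobox probe sets were called. A PLATZ zinc-binding protein (AT4G17900) was at 3.67 (SE 0.0927), and MYB108, an anther and stress regulator, at 2.97 (SE 0.171). ZFP4 was at 1.61 (SE 0.147, adjusted p = 0.000143), just over the threshold, and at 1.58 without WT replicate 2 and 1.46 without fl replicate 2. The plot of gene lists places these families beside the other groups.

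**Figure D3:**
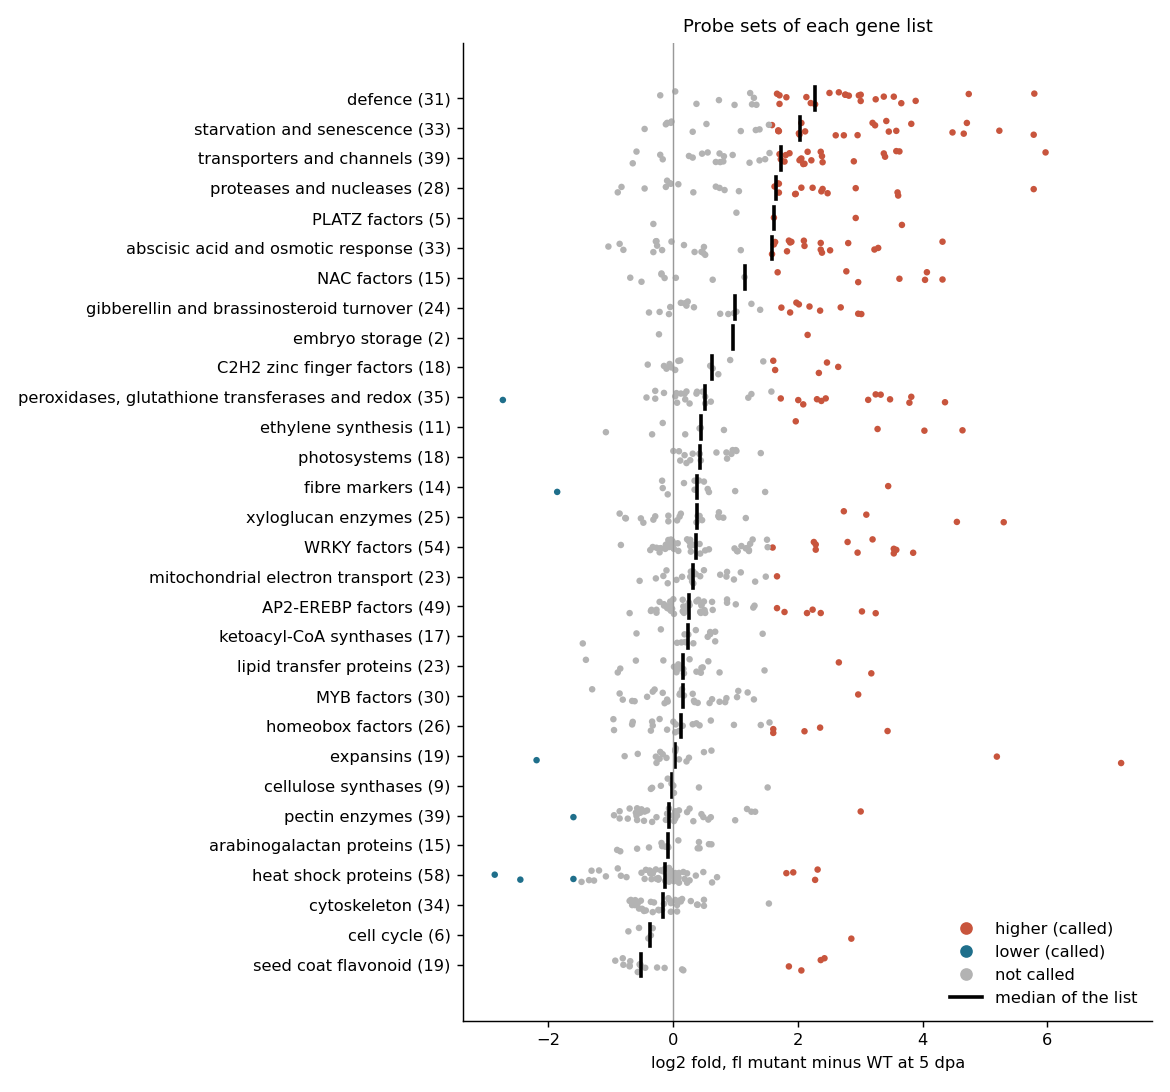
Log2 fold of fl mutant minus WT at 5 dpa for every probe set of the 30 gene lists, with the number of probe sets in parentheses (orange, called higher; blue, called lower; grey, not called) and the list median as a black bar. Medians run from 2.28 for defence down to −0.51 for seed coat flavonoid genes, and blue dots appear in the redox, fibre marker, expansin, pectin and heat shock lists.

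Enzymes that cut or join xyloglucan, the main tether of cellulose in the primary wall, were called in 4 of 25 probe sets, all higher, with a median of 0.38. XTH5 read −2.48, −2.93 and −2.94 in WT and 2.61, 2.49 and 2.48 in the fl mutant, a fold of 5.30 (SE 0.128, adjusted p = 2.07e-07). XTH29 was at 4.55 (SE 0.174, adjusted p = 1.66e-06) and TCH4 at 3.10 (SE 0.102, adjusted p = 8.23e-07), and BXL1, named above, was the fourth. The TCH4 call came from 1 of 10 probe sets matched to that gene, and the others reached down to −0.85.

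Expansins loosen walls without cutting them. Of 19 probe sets only the EXLB1 pair was higher, and 1 was lower. That was an EXPA1 match, with 1.13, 1.17 and 1.00 in WT and −1.00, −1.02 and −1.22 in the fl mutant, a fold of −2.18 (SE 0.0835, adjusted p = 1.66e-06). A different EXPA1 probe set, which the study follows as the fibre expansin, was at 0.50 (SE 0.0657, adjusted p = 0.000932) and was not called. Pectin enzymes and their inhibitors had 1 higher call, PGIP1, and 1 lower of 39, with a median of −0.06. The lower was a pectin lyase-like protein matched to AT1G48100, at −1.59 (SE 0.0958, adjusted p = 1.57e-05), and it was not called with arrays centred on their median (−1.55) or 75th percentile (−1.53), or without WT or fl replicate 2 (−1.52 in each case).

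Several groups that serve fibre growth had no call at 5 dpa. Of 17 probe sets for ketoacyl-CoA synthases, which elongate fatty acids for wax and membranes, 34 for the cytoskeleton, 15 for arabinogalactan proteins and 9 for cellulose synthases, none passed both thresholds, and their medians were 0.25, −0.15, −0.08 and −0.02. Some members fell just short of the fold threshold of 1.58 on the log2 scale. The tubulin TUB6 was at 1.54 and was called with arrays centred on their median (1.59) or 75th percentile (1.60). The cellulose synthase-like ATCSLG1 was at 1.52 and was called with the 75th percentile (1.59), without WT replicate 1 (1.69) or without fl replicate 3 (1.64). Without WT replicate 3, 1 ketoacyl-CoA synthase was called higher. Of 23 lipid transfer proteins 2 were higher, LTP3 at 2.66 (SE 0.122) and the match of AT3G22600 at 3.18 (SE 0.0849). The LTP3 call came from 1 of 6 probe sets matched to that gene, and the others reached down to −1.39. Of 23 probe sets for mitochondrial electron transport 1 was higher, NAD4L at 1.67 (SE 0.127, adjusted p = 5.39e-05), and it fell to 1.55 without WT replicate 3 and 1.57 without fl replicate 2.

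The 14 fibre markers were genes known from elongating fibres, and 1 of them was higher and 1 lower. HOS3-1, a fatty acid elongase known in cotton as a long chain elongation enzyme of fibres, read −1.89, −1.70 and −1.68 in WT and 1.68, 1.70 and 1.71 in the fl mutant, a fold of 3.45 (SE 0.0721, adjusted p = 1.21e-07). SUS4, a sucrose synthase that splits sucrose into UDP-glucose for wall synthesis, read 0.79, 1.00 and 1.01 in WT and −0.93, −0.79 and −1.01 in the fl mutant. It was lower by 1.85 on the log2 scale, a fold of −1.85 (SE 0.0878, adjusted p = 4.74e-06), with no overlap. The ID of the SUS4 probe set shares a cluster number with that of the EXPA1 fibre marker. Annotation pairs them with different cotton genes, but the match of this probe set is less certain for it.

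The remaining 12 markers lay between −0.17 and 1.48 and were not called. The vacuolar water channel gamma-TIP was nearest to a call at 1.48 (SE 0.0943, adjusted p = 2.04e-05), and the germin-like protein GLP4 was at 1.00 (SE 0.0566). The fasciclin protein FLA12, the elongase KCS11 and the acyltransferase EMB3009 of cuticle formation were at 0.58, 0.56 and 0.42. MYB106 and MYB16, MIXTA-type regulators of epidermal outgrowth, were at 0.35 (SE 0.108) and −0.16 (SE 0.0719). Over all 14 markers the mean log2 value was −0.30, −0.22 and −0.23 in the WT arrays and 0.23, 0.24 and 0.19 in the fl arrays. The genotypes did not overlap for 12 of the 14, beside 49.2% of all probe sets, ACBP4 and FLA11 being the others.

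**Figure D4:**
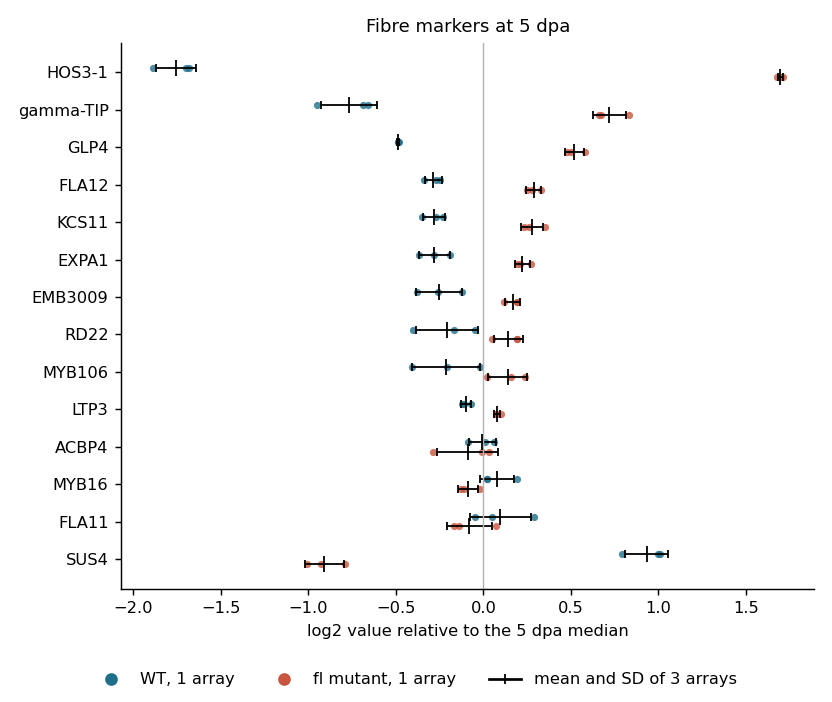
Log2 value relative to the 5 dpa median in each array for the 14 fibre markers (dots; blue, WT; orange, fl mutant), with mean and SD of 3 arrays per genotype in black. HOS3-1 (3.45) and SUS4 (−1.85) stand apart in opposite directions, and the other 12 lie between −0.17 and 1.48.

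SUS4 was the only called transcript among the 28 that the study assayed by qRT-PCR, so its primer pair is given. The qRT-PCR measurements themselves, which bear on the direction at 5 dpa, were not analysed here, and the fold tables of the study give SUS4 the opposite direction. The study reports that qRT-PCR gave a pattern like that of its array data for every gene assayed. The genome position of SUS4 was not determined here.
SUS4 forward: tcgaagaaattggcaagggtctcg
SUS4 reverse: aggcaatgacctgtggactaccaa

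Lower transcripts were fewer and less alike. The largest fall among matched genes was that of a ribonuclease H-like protein (AT3G09510), with 2.38, 2.60 and 2.48 in WT and −2.40, −2.38 and −2.52 in the fl mutant, a fold of −4.92 (SE 0.0762, adjusted p = 4.10e-08). The RAD-like MYB protein RL1 was at −2.14 (SE 0.0883), the TPR protein EMB2654 at −1.96 (SE 0.136), the sulfotransferase ST at −1.77 (SE 0.0976) and the sucrose-regulated bZIP factor ATB2 at −1.75 (SE 0.0926). Of the transcripts without a gene name, the lowest were at −4.24 (SE 0.0884) and −3.38 (SE 0.0785).

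Of 58 heat shock and chaperone probe sets 3 were lower and 4 higher. All 3 lower were small heat shock proteins, which keep unfolding proteins soluble. The match of AT1G07400 read 1.26, 1.37 and 1.32 in WT and −1.26, −1.82 and −1.51 in the fl mutant, a fold of −2.85 (SE 0.132, adjusted p = 4.22e-06). HSP22.0, of the endoplasmic reticulum, was at −2.44 (SE 0.0814, adjusted p = 8.54e-07). The third, matched to AT2G29500, was at −1.59 (SE 0.0997) and lost its call in 5 of the alternative settings, at −1.50 to −1.58. The higher members were not small heat shock proteins: 3 were DnaJ-type cochaperones, at 2.32 and 1.82 for AT2G17880 and 1.93 for J8, and 1 was a metal-binding protein matched to AT4G08570 at 2.28.

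Markers of other tissues of the ovule had higher calls as well, beside 14.0% of named transcripts. Of 19 flavonoid probe sets of the seed coat 4 (21.1%) were higher and 13 had negative folds, with a median of −0.51. CHS, the entry enzyme of flavonoid synthesis, was higher in 2 of its 8 probe sets. They were at 2.43 (SE 0.114, adjusted p = 4.51e-06) and at 2.37 with a smaller error (SE 0.0627, adjusted p = 2.95e-07), and another CHS probe set was at −0.80. OMT1, a methyltransferase of phenolics, was at 1.86 (SE 0.153), and a chalcone isomerase-like protein (AT2G26310) at 2.06 (SE 0.0991). Of the 2 embryo storage probe sets a cupin (AT1G07750) was higher at 2.16 (SE 0.0793). Of 6 cell cycle probe sets the D-type cyclin CYCD1;1 was higher, at 2.86 (SE 0.232, adjusted p = 7.38e-05), and the other 5 were negative.

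No photosystem gene was called. All 18 photosystem probe sets had positive folds with a median of 0.44, 11 had an adjusted p of at most 0.01, beside 21.3% of all probe sets, and 7 did not. LHCA3, a light-harvesting protein, came closest at 1.41. The mean log2 value over the 18 was −0.27, −0.27 and −0.31 in WT and 0.32, 0.30 and 0.26 in the fl mutant. The part of green tissue in the other differences was not tested.

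The array's RNA quality controls also moved with genotype. The log2 value of the 5′ end minus that of the 3′ end of actin was −0.28, −0.03 and −0.21 in WT and 0.13, 0.07 and 0.12 in the fl mutant, and for ubiquitin 11 it was −0.10, −0.21 and −0.23 in WT and 0.17, 0.15 and 0.14 in the fl mutant. The differences between the genotypes were 0.28 and 0.33, and their part in the results was not tested. Among 52 probe sets for reporter sequences that the plant genome does not hold, RPTR-Ghi-U57609-2_s_at was among the 43 lower calls. It read 2.53, 2.02 and 2.52 in WT and −2.76, −2.30 and −2.02 in the fl mutant, a fold of −4.71 (SE 0.21, adjusted p = 3.44e-06), while the other 51 lay between −0.83 and 0.15.

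The calls of 5 dpa were next set beside those of the other stages, which share no arrays with them. Of the 441 higher transcripts 2 were higher and 85 lower at 0 dpa, where 37 and 334 were called in all, so that the 85 are 19.3% of the 5 dpa list and 25.4% of the 0 dpa list. At 10 dpa 213 of the 441 were higher and 35 lower, of 1180 and 1574 called, and the 213 are 48.3% of the 5 dpa list and 18.1% of the 10 dpa list. The ASN1 probe set with the largest fold shows this course, with log2 folds of −3.73 at 0 dpa, 4.71 at 5 dpa and 4.78 at 10 dpa, as does MLS with −3.32, 5.23 and 6.29. RD26 differs, with −0.99 at 0 dpa and −0.97 at 10 dpa beside 4.32. At 15 dpa 28 of the 441 were higher and 55 lower, of 366 and 458 called. At 20 dpa 18 were higher and 72 lower by the labels, of 594 and 468 called. The labels there conflict with the fold tables, as at 5 dpa. Of the 43 lower transcripts 10 were higher and 3 lower at 0 dpa, and 10 and 5 at 10 dpa. No other stage called 120 of the higher and 12 of the lower.

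**Figure D5:**
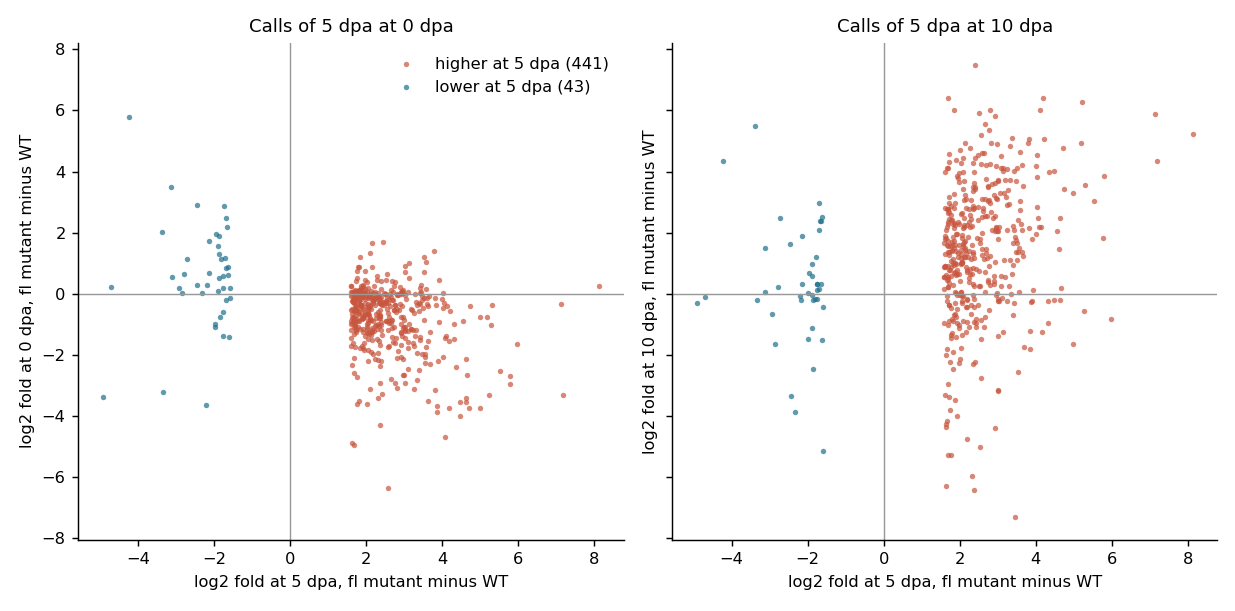
Log2 fold of fl mutant minus WT at 0 dpa (left) and 10 dpa (right) against that at 5 dpa, for the 441 transcripts higher (orange) and 43 lower (blue) at 5 dpa. Most higher transcripts lie below 0 at 0 dpa and above 0 at 10 dpa, where 213 are called higher, but 35 are called lower.

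Whether the genotype difference itself changed between stages was tested in a fit of all 30 arrays. The difference at 5 dpa was above that at 0 dpa for 953 transcripts (3.97%) and below it for 196 (0.816%). Against 10 dpa it was above for 1750 (7.28%) and below for 1041 (4.33%). Against 10 dpa 12 of the 14 fibre markers were above and 0 below. Most of them are in the study as transcripts lower in the fl mutant at 10 dpa on these arrays, so that this count follows in part from how they were chosen. At 10 dpa 13 of the 14 were lower in the fl mutant, with a median fold of −5.05 beside 0.39 at 5 dpa. Against 0 dpa, where the median was −0.82, 6 were above and 0 below.

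Single genes show the size of these changes. HOS3-1 went from −7.32 at 10 dpa to 3.45 at 5 dpa, a difference of 10.77 (SE 0.162, adjusted p = 5.85e-25). RD20 stood at −6.43 at 10 dpa beside 2.37 at 5 dpa, a difference of 8.81 (SE 0.24), and GLP4 at −7.20 beside 1.00, a difference of 8.20 (SE 0.133). SUS4 stood at −2.46 at 10 dpa beside −1.85 at 5 dpa, on the same side at both stages. A second TCH4 probe set stood at −8.11 at 10 dpa and 0.38 at 5 dpa, a difference of 8.49 (SE 0.184), without a call at 5 dpa. With the labels of 5 dpa exchanged, these differences would change in size, and the counts against 0 dpa would be 239 above and 317 below. Those against 10 dpa would be 1697 above and 1637 below.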

How the data were processed

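The authors made the deposited log2 values by RMA in GeneSpring GX, per the labels and the study's methods. In the values themselves each probe set is also centred, with a median of 0 among the arrays of a stage. No array level, background signal or depth is held, and the number of arrays limits the precision. Of 24132 probe sets, 103 controls were left out. limma 3.58.1 (lmFit, eBayes, R 4.3.3) compared 3 fl mutant with 3 WT arrays of 5 dpa by their labels, with Benjamini-Hochberg adjustment over 24029 probe sets. Stage differences were contrasts between the 10 group means of the 30 arrays. p-values measure the spread between these samples. Counts were made in Python 3.11.15.

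Members and gene lists were chosen with earlier results of these data known. Genes named are the 10 matched genes with the largest fold in each direction, the 3 called genes with the largest fold of each of 30 lists, transcripts the study names for 5 dpa, the fibre markers, the 3 largest stage differences in each direction and 2 unnamed probe sets in each direction. All other transcripts were named after their values were seen. Probe sets are identified by gene name, locus or value. Fold columns of the study's tables served only for the check of direction. The alternatives were the methods' t-test, all 30 arrays, a replicate block, 2 centrings, other thresholds, probe sets for 1 transcript, robust empirical Bayes, exchanged labels and each array left out.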

Additional observations from a re-analysis of the deposited data

Results flagged for a closer look

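The genotype difference at 5 dpa was compared with that at 0 and at 10 dpa by a test of the difference itself (limma, all 30 arrays), and these results passed it. Against 0 dpa 953 transcripts were above and 196 below. Against 10 dpa 1750 were above and 1041 below. These counts and the values of single genes below rest on the deposited labels of 5 dpa. With those labels exchanged, the single values would change in size and not only in sign.

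The largest values above 0 dpa among matched genes were 10.50 for EXLB1, 8.95 for the match of AT5G17350, a protein of unknown function, and 8.77 for NAC047. NAC047 stood at −4.70 at 0 dpa and 4.07 at 5 dpa. The largest values below 0 dpa were −4.62 for ATB2, −3.90 for EMB2654 and −3.87 for GLX1.

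Against 10 dpa the largest values above were 10.77 for HOS3-1, 8.81 for RD20 and 8.49 for a TCH4 probe set. The largest values below were −6.12 for a GDSL lipase (AT5G45960), −5.78 for a second pectin lyase-like match of AT1G48100 and −5.63 for an oxidoreductase (AT2G24580). These 3 were not called at 5 dpa, where they stood at −0.95, −0.59 and −0.40.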

How the results depend on the processing

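With each array left out in turn, higher calls ranged from 435 to 450 and lower calls from 41 to 44. A fold of at least 2 gave 880 higher and 200 lower calls at 5 dpa, 1677 above and 882 below 0 dpa, 2920 above and 2933 below 10 dpa, and 70 of 82 transcripts of opposite sign at 5 dpa. Probe sets for 1 transcript gave 236 higher calls, with fewer tested, and 94 called list members in place of 182. With the 5 dpa labels exchanged, 239 were above and 317 below 0 dpa, and 1697 above and 1637 below 10 dpa. The methods' t-test called 431 and 40. The median log2 fold was −0.07, and −0.03 and −0.01 with arrays centred on their median or 75th percentile, where 467 and 476 were higher and 40 and 38 lower (92.1 and 92.6% higher). Replicate numbers did not pair the arrays: deviations of same-numbered arrays correlated at −0.017, −0.064 and 0.052, and other pairs at −0.064 to 0.071. With the replicate block, 441 and 43 were called, and stage counts did not move. No named transcript called at 5 dpa changed sign under the alternatives run on it, which left out the exchange of labels and, for probe sets of 1 transcript, covered 78 of 151 named transcripts. The values hold no signal over background, so dim probe sets could not be set aside.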
